A study of Drosophila melanogaster with 3 samples.

Results

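The MCM peaks described here lie on chromosome 4 and on the 5 scaffolds of mapped heterochromatin called 2LHet, 2RHet, 3LHet, 3RHet and XHet. They were chosen by the sequence named in the first column of each deposited peak list, whatever their score or width. Chromosome 4 holds 80 of the 10679 peaks of replicate 1, 62 of the 8553 peaks of replicate 2 and 35 of the 7029 regions in a list for the whole series. The Het scaffolds hold 187, 137 and 48, so that 267 peaks of replicate 1 and 83 whole-series regions are described. Peaks on the arms 2L, 3L, 3R and X, which number 8321, 6576 and 5586, served as the background. Arm 2R and sequence not placed on any chromosome were not used here.

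The data come from chromatin immunoprecipitation and Illumina sequencing of Kc167, a female cell line derived from Drosophila melanogaster embryos at a late stage, with the genotype se/e, grown as an asynchronous culture. All samples share this line, genotype and growth, and none was treated. A mouse monoclonal antibody against MCM2-7 was used, made with purified yeast complex as the antigen and directed at its Walker B motif. There were 2 immunoprecipitations, from chromatin extractions 1 and 2 (replicates 1 and 2), and 1 input from a further extraction, which was not analysed here and gives no background level. Each replicate has its own peak list, and the whole-series list holds the joined extents of overlapping replicate peaks, so it is no further measurement. The labels do not say that the extractions came from separate cultures, so the SDs below measure a spread that may be technical. With 2 lists, the smallest two-sided p of an exact sign-flip permutation test is 0.5, so that test could not pass 0.05, and values are given as descriptions.

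The MCM2-7 complex is a ring of related ATPases. It is loaded at replication origins before S phase and becomes the core of the replicative helicase. Chromosome 4, the small dot chromosome of the fly, is an autosome in which genes are interspersed with repeats and which carries heterochromatin marks along most of its length. The Het scaffolds are assembled pieces of the heterochromatin next to the centromeres of the larger chromosomes, rich in transposon remnants and satellite-like repeats. Heterochromatin near centromeres is known to replicate late in S phase.

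MCM peaks were less dense on chromosome 4 than on the arms, and sparser again on the Het scaffolds. Chromosome 4 carried 65.6 and 50.8 peaks per Mb in replicates 1 and 2, the Het scaffolds 23.2 and 17.0, and the arms 85.3 and 67.4. Span was measured between the outermost peaks of both lists and came to 1.22 Mb on chromosome 4, 8.04 Mb on the Het scaffolds and 97.6 Mb on the arms. The ratio to the arms was 0.761 ± 0.0105 for chromosome 4 and 0.263 ± 0.0141 for the Het scaffolds (SD, n = 2). The 2 lists gave nearly the same ratio, and the distance of each ratio from 1 was larger than the spread between them. In the 50% of each list with the higher deposited score, the ratio was 1.05 for chromosome 4, the other side of 1, and 0.137 for the Het scaffolds. In the 50% with the higher score after division by the constant of each sequence, a scale explained with the scores, it was 0.324 for chromosome 4 and 0.0400 for 2RHet, 3LHet and 3RHet. Because peaks were also narrower, the covered length fell further behind, at 5.59 and 5.95 bp per kb on chromosome 4, 2.39 and 1.87 on the Het scaffolds and 16.1 and 12.1 on the arms. The sequence nearest to this heterochromatin is the 2 Mb at the centromere end of each arm. Pooled over the arms, its density was 0.640 ± 0.00855 of that of the arms as a whole (SD, n = 2), between chromosome 4 and the Het scaffolds. It was not even, since the stretch of 3L from 23312387 to 24532735 within it held only 9 and 3 peaks.

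Along chromosome 4, MCM peaks thinned with distance from the centromere, which lies before the start of the sequence in the known orientation. When the span was divided into 4 equal parts, replicate 1 had 31, 25, 16 and 8 peaks from the centromere side outwards, and replicate 2 had 20, 19, 13 and 10. The whole-series list followed with 12, 9, 9 and 5 regions. No bin of 100 kb was empty in either replicate, and the counts per bin ran between 1 and 13 in replicate 1 and between 1 and 11 in replicate 2. The bin with most whole-series regions was the first, from 1 to 100000, with 6 regions beside 8 and 6 replicate peaks. The next bin, from 100001 to 200000, held 5 and 2 peaks and was the only one without a whole-series region. The largest number of replicate peaks lay in the bin from 300001 to 400000, with 13 in replicate 1 and 11 in replicate 2.

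**Figure D1:**
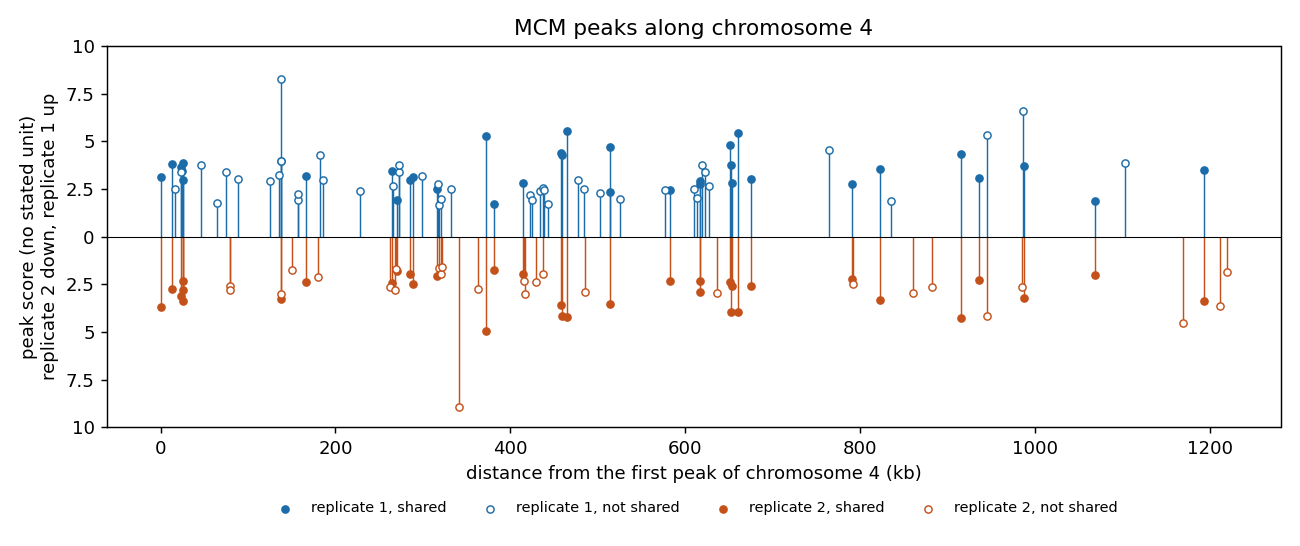
MCM peaks along chromosome 4. The x axis is the distance from the first peak in kb, and the height of each line is the deposited score (no stated unit), upward for replicate 1 and downward for replicate 2, with filled circles for peaks that overlap the other replicate. Peaks are most frequent on the left, with 31 and 20 in the first of 4 equal parts against 8 and 10 in the last, and the tallest line of each replicate ends in an open circle.

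Short runs of peaks stood out on chromosome 4, where a run joins peaks no more than 5 kb apart. The run with most peaks in replicate 1 had 7, over 17.2 kb from 674797 to 692014, but only 2 of its peaks had a counterpart in replicate 2. In replicate 2 the longest run had 5 peaks, from 326473 to 334581, overlapping a replicate 1 run of 5 from 328662 to 337108, with which it had 2 pairs of overlapping peaks. A second run found by both replicates lay between 87110 and 90342, with 5 peaks in replicate 1 and 4 in replicate 2, and it gave 4 whole-series regions. Overall 28.8% of replicate 1 peaks on chromosome 4 (23 of 80) had a neighbour within 1 kb, against a background of 49.5% on the arms. In replicate 2 the share was 30.6% (19 of 62), against 44.8% on the arms. Runs of 5 or more peaks held 21.2% and 8.06% of the peaks of chromosome 4, and 36.5% and 27.2% of those of the arms. Peaks with no other within 5 kb made up 37.5% and 46.8% on chromosome 4, and 20% and 24.8% on the arms. MCM peaks of chromosome 4 thus stood alone more often when every peak was counted, without adjustment for their lower density. In the 50% of each list with the higher deposited score, the share with a neighbour within 1 kb differed from the arms by -0.427 points, against -17.5 ± 4.72 for all peaks (SD, n = 2).

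Chromosome 4 had no very long empty stretch between its outermost peaks, but its typical stretch was longer than on the arms. The median length without a peak in either replicate was 5.55 kb there, 2.86 kb on the arms and 6.22 kb on the Het scaffolds. The longest on chromosome 4 was 89.0 kb, from 739489 to 828481, followed by 81.0 kb from 1052612 to 1133591 and 67.2 kb from 1167238 to 1234447. All of these lay beyond the middle of its span. None passed 100 kb, whereas such stretches made up 51.7% of the span of the Het scaffolds (24 stretches) and 18.8% of that of the arms (124 stretches). With a span of 1.22 Mb, beside 97.6 Mb for the arms, chromosome 4 had little room for such stretches.

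On the Het scaffolds MCM peaks lay alone or in short runs, with a few denser places and long empty stretches. The shares below were not adjusted for density, which was 0.263 of that of the arms. The SD of the gaps between neighbours was 1.72 and 1.65 times their mean, beside 2.05 and 1.96 on the arms. Peaks with no other within 5 kb made up 44.9% and 49.6% there, and 20% and 24.8% on the arms. Runs of 5 or more held 11.2% and 11.7% of the Het peaks, and 36.5% and 27.2% of those of the arms. A neighbour within 1 kb was present for 61 of 187 and 46 of 137 Het peaks, or 32.6% and 33.6%, against the 49.5% and 44.8% of the arms. Of 51 bins of 50 kb on 3RHet, 23 held no peak in either replicate, as did 31 of 65 on 2RHet and 21 of 50 on 3LHet. The densest bin of the Het scaffolds was 3RHet from 600001 to 650000, with 12 peaks in replicate 1 and 14 in replicate 2. It gave 5 whole-series regions, so most of its peaks did not coincide between replicates although both lists placed them in the same interval. One example is a pair of narrow peaks, 35 bp from 629666 in replicate 1 and 15 bp from 629631 in replicate 2, that missed each other by 20 bp. On 3LHet the densest bin was also that from 600001 to 650000, with 9 and 4 peaks. It holds most of the longest Het run, 10 peaks of replicate 1 over 10.9 kb from 598638 to 609491, and replicate 2 had a run of 4 peaks inside it, from 601490 to 607284. On 2RHet 3 bins shared the highest summed count of 8, and the first of them, from 450001 to 500000, held 4 peaks in each replicate.

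Between the outermost peaks, the longest stretch without a peak on any Het scaffold was 397 kb on 2RHet, from 861639 to 1258850. Others were 226 kb on 3RHet from 791706 to 1017442, 207 kb on 3LHet from 609492 to 816928 and 153 kb on 2LHet from 34929 to 187552. Sequence before the first peak was not counted. On 3LHet that peak started at 218488, so the empty stretch before it was longer than 207 kb. On the short scaffold XHet, the span of 0.0777 Mb held 8 and 7 peaks, of which 6 and 7 lay in the bin from 50001 to 100000, and the longest empty stretch was 36.4 kb from 7205 to 43645. The span is set by these same few peaks, so its 103 and 90.1 peaks per Mb were not compared with the arms. At the other end, 2LHet had 2 peaks in each replicate over 0.167 Mb, one of which was shared.

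**Figure D2:**
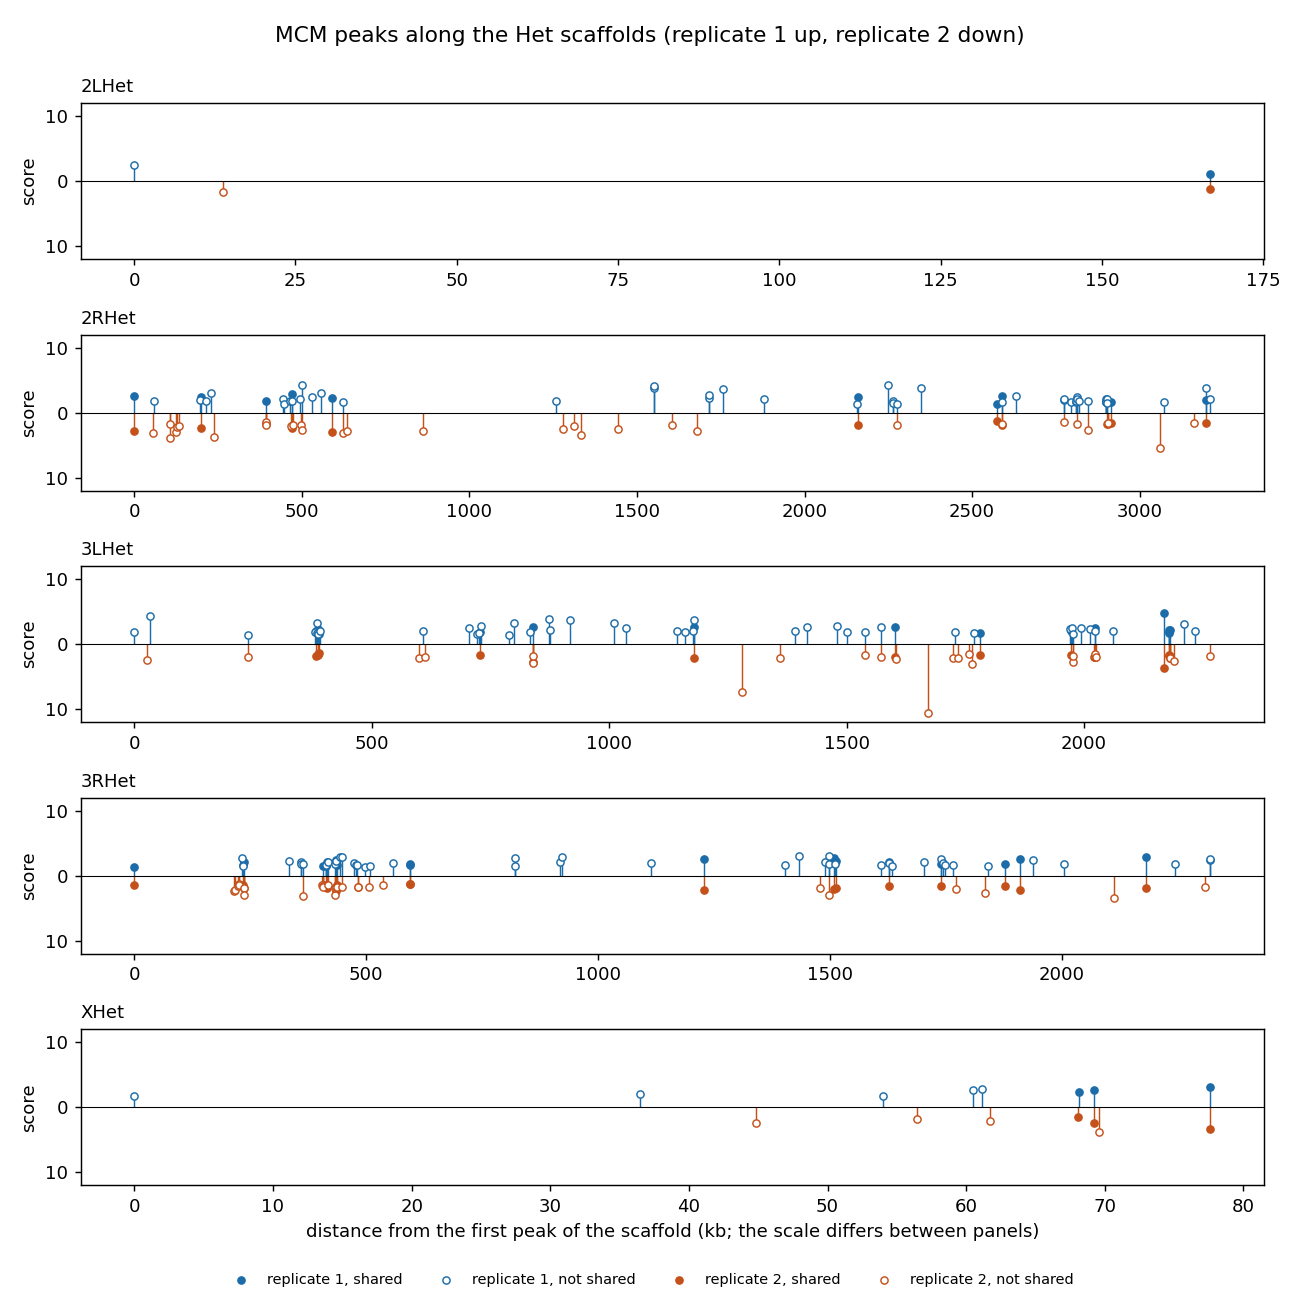
MCM peaks along each Het scaffold. The x axis is the distance from the first peak of the scaffold in kb, on a scale of its own in each panel, and the height is the deposited score (no stated unit), upward for replicate 1 and downward for replicate 2, with filled circles for peaks that overlap the other replicate. Single peaks, a few denser places and long empty stretches are seen on 2RHet, 3LHet and 3RHet, and most circles are open.

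MCM peaks were narrow on both kinds of sequence. The median width was 60.5 and 85.5 bp on chromosome 4, 61 and 70 bp on the Het scaffolds and 136 and 134 bp on the arms, in replicates 1 and 2. As a ratio to the arms this was 0.541 ± 0.137 for chromosome 4 and 0.485 ± 0.0522 for the Het scaffolds (SD, n = 2). Both tails moved. Peaks under 20 bp made up 18.8% and 16.1% of peaks on chromosome 4, 23.0% and 27.7% on the Het scaffolds and 7.66% and 7.28% on the arms. Those of 200 bp or more made up 10% and 16.1% on chromosome 4, 14.4% and 13.1% on the Het scaffolds and 33.7% and 31.4% on the arms. Pooled over the arms, peaks of the proximal 2 Mb were not narrow, with medians of 141 and 139 bp. Within it, the stretch of 3L from 23312387 to 24532735 did have narrow peaks. Its medians were 19 bp over 9 peaks in replicate 1 and 52 bp over 3 peaks in replicate 2.

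The deposited score has no unit in the files, and its values carried a scale of their own on each sequence. Of 5023 replicate 1 peaks whose score occurred more than once in the list, 4915 shared it with a peak of the same sequence, and so did 3556 of 3655 in replicate 2. On each of the 8 sequences with enough peaks, most scores were 1 constant multiplied by a ratio of small whole numbers with a denominator up to 60. In replicate 1 the constant was 1.25 on chromosome 4, 1.18, 1.17 and 1.13 on 2RHet, 3LHet and 3RHet, and between 0.801 and 0.871 on the arms. In replicate 2 it was 1.09 on chromosome 4, 1.00, 0.988 and 0.877 on the same scaffolds, and between 0.709 and 0.733 on the arms. These constants matched between 86.7% and 100% of the scores of a sequence. Over 20 unrelated constants, the median share matched was at most 2.22% on any sequence. The chosen constant was searched for in these same scores and the unrelated ones were not, so part of this gap follows from the search. The next best choice was 0.5 or 2 times as large. Choices were ranked by the mean log of numerator times denominator, where lower is better. On chromosome 4 it was 5.62 for the choice and 5.72 for the next best in replicate 1, and 6.38 and 6.65 in replicate 2. On 3RHet in replicate 2 it was 6.89 and 6.94. What the constant stands for is not given in the sources used here, and XHet and 2LHet had too few peaks to find it.

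Whether MCM peaks of chromosome 4 scored higher or lower than arm peaks depended on this scale. As deposited, the median score was 3.01 and 2.66 on chromosome 4, 2.02 and 1.91 on the Het scaffolds and 2.56 and 2.31 on the arms. The ratio to the arms was then 1.16 ± 0.0153 for chromosome 4 and 0.808 ± 0.0290 for the Het scaffolds (SD, n = 2). After division by the constant of each sequence, the median was 2.40 and 2.44 on chromosome 4, 1.72 and 2.0 on 2RHet, 3LHet and 3RHet together and 3.05 and 3.21 on the arms. The ratio became 0.773 ± 0.0190 for chromosome 4 and 0.593 ± 0.0424 for these 3 scaffolds (SD, n = 2). With the constants chosen, chromosome 4 lay above the arms on the deposited scale and below them on the divided one. The Het scaffolds lay below them on both. The divided order rests on that choice, since a constant 0.5 times as large on these sequences alone would raise their divided scores. By the deposited score 16.2% and 14.5% of chromosome 4 peaks were in the top 10% of their list. After division, and ranked among the 8 sequences with a constant, 2 of 80 and 1 of 62 were.

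Set beside stretches of the arms of its own length, chromosome 4 was extreme in width and score more than in number of peaks. The arms 2L, 3L, 3R and X give 78 such blocks. Its 80 and 62 peaks exceeded the count in 13 and 11 blocks, so its density was within their range, which ran between 9 and 164 in replicate 1 and between 3 and 144 in replicate 2. Its median width was below that of 77 of the 78 blocks in each replicate. The exception was the block of 3L from 23312387 to 24532735, with 9 and 3 peaks and medians of 19 and 52 bp. The deposited median score of chromosome 4 was above 77 and 76 blocks. With the constants chosen, its divided median score was below all 78 in both replicates, where the lowest block had 2.53 and 2.80.

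The relation between width and score also differed between the sequences. On the Het scaffolds wider peaks scored lower, with Spearman's rho of -0.307 over 187 peaks and -0.412 over 137. Chromosome 4 gave 0.215 over 80 and 0.048 over 62, and on the arms wider peaks scored higher, with rho of 0.386 over 8321 and 0.324 over 6576. These correlations are across peaks of 1 library and are descriptions only. The inverse order appeared within single scaffolds, where the scale cannot enter, with rho of -0.436 and -0.197 on 2RHet, -0.383 and -0.474 on 3LHet and -0.179 and -0.458 on 3RHet. Het peaks under 50 bp had a median deposited score of 2.13 and 2.07, and those of 200 bp or more 1.87 and 1.53. On the arms the same classes had 2.21 and 2.07 under 50 bp, and 3.03 and 2.71 at 200 bp or more. The narrowest peaks thus scored almost alike on the deposited scale, but not after division, where peaks under 50 bp had 1.83 and 2.15 on 2RHet, 3LHet and 3RHet and 2.63 and 2.88 on the arms. At 200 bp or more the divided medians were 1.61 and 1.71 on these scaffolds and 3.61 and 3.75 on the arms.

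**Figure D3:**
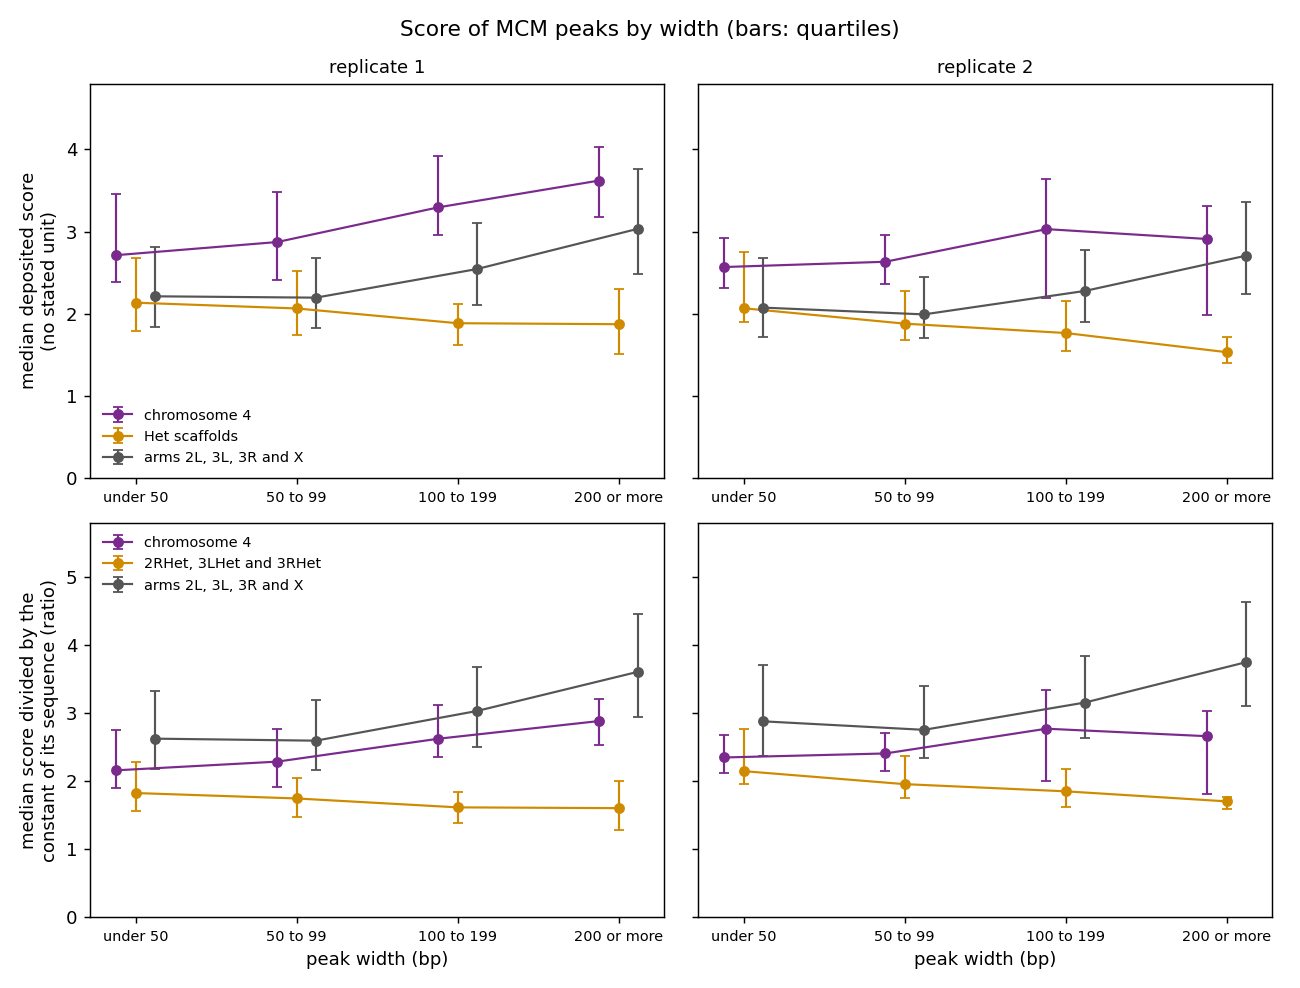
Median score of MCM peaks by width class (bp) in each replicate, as deposited (upper panels, no stated unit) and divided by the constant of the sequence (lower panels, 2RHet, 3LHet and 3RHet only for the scaffolds). Bars are the quartiles over peaks. The Het line declines with width. The arm line dips slightly from under 50 bp to 50 to 99 bp and climbs from there. Chromosome 4 lies above the arms in the upper panels and below them in the lower ones.

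MCM peaks of chromosome 4 and the Het scaffolds were placed at the same position by both replicates less often than arm peaks. A peak counts as shared when it has 1 bp or more in common with a peak in the other list. On chromosome 4, 45.0% of replicate 1 peaks were shared (36 of 80, exact Clopper-Pearson 95% interval 33.8 to 56.5), against a background of 67.8% on the arms. In replicate 2 it was 56.5% (35 of 62, 43.3 to 69.0), against 87.2%. The Het scaffolds gave 26.2% (49 of 187, 20.1 to 33.1) in replicate 1 and 35.0% (48 of 137, 27.1 to 43.7) in replicate 2. These intervals cover counting error only, and none reached the arm value of its list. The difference from the arms was -26.8 ± 5.65 percentage points for chromosome 4 and -46.9 ± 7.50 for the Het scaffolds (SD, n = 2). The proximal 2 Mb of the arms, where peaks were also less dense, together shared 68.3% and 88.3% of their peaks. In the stretch of 3L from 23312387 to 24532735 within them, 11.1% of 9 and 33.3% of 3 peaks were shared. Among the scaffolds 2RHet shared least, with 17.9% and 23.8%, followed by 3LHet with 28.8% and 39.0% and 3RHet with 29.0% and 40%, whose intervals overlap.

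Sharing followed width. On chromosome 4, 4 of 34 replicate 1 peaks under 50 bp were shared, but 17 of 18 from 100 bp to under 200 bp were. In replicate 2 these counts were 6 of 19 and 14 of 16. Within each width class the interval of the replicate 1 share on chromosome 4 included the arm share. In replicate 2 it did so under 50 bp and from 100 bp to under 200 bp, but not in the classes from 50 to 99 bp (41.2%, against 81.1% on the arms) and of 200 bp or more (80%, against 99.3%). On the Het scaffolds sharing was below that of the arms in every width class. From 100 bp to under 200 bp it was 65.6% and 67.7% there and 81.3% and 97.0% on the arms, and at 200 bp or more it was 59.3% and 83.3% there and 95.2% and 99.3% on the arms.

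**Figure D4:**
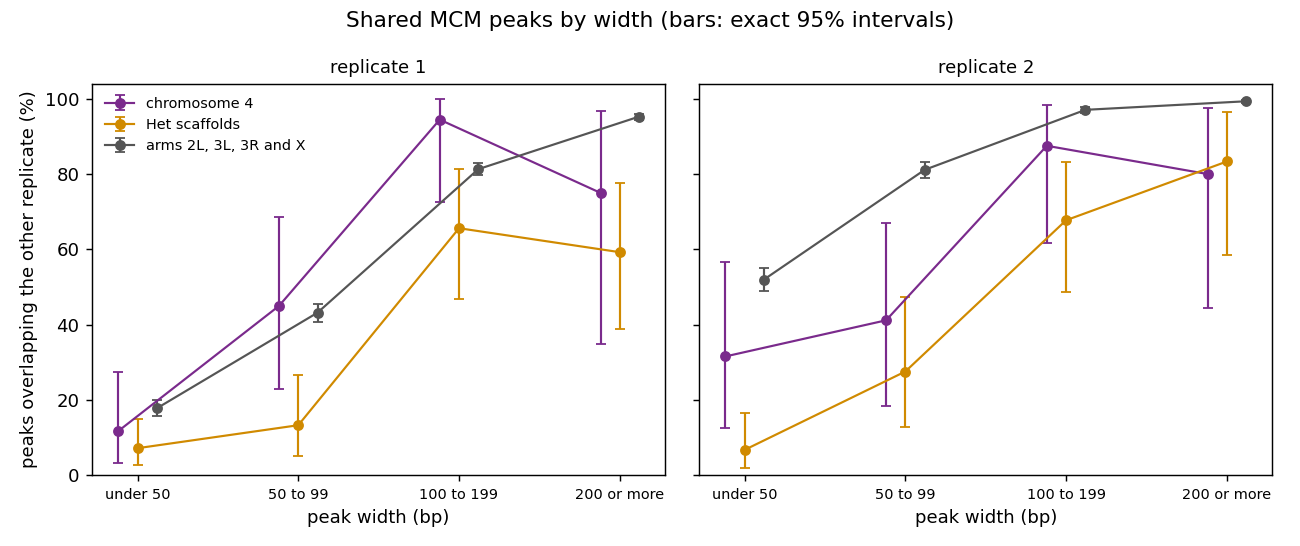
Share of MCM peaks (%) that overlap a peak of the other replicate, by width class (bp), on chromosome 4, the Het scaffolds and the arms in each replicate. Bars are exact 95% intervals for counting error. Shares are higher at 100 bp or more than below it on each kind of sequence, and the Het scaffolds lie below the arms in every class, at 65.6% and 67.7% against 81.3% and 97.0% from 100 bp to under 200 bp.

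A high score did not mark the repeatable MCM peaks of the Het scaffolds. When each list was divided into 4 equal parts by deposited score, 1 of 14 and 2 of 18 Het peaks of the highest part were shared, with median widths of 25 and 15 bp. In the lowest part 23 of 98 and 26 of 59 were. The parts between gave 15 of 45 and 10 of 30 in replicate 1 and 13 of 39 and 7 of 21 in replicate 2. In replicate 1 the share therefore did not fall steadily with score, and the interval of the highest part, 0.181 to 33.9%, included the 23.5% of the lowest. On chromosome 4 the order was the other way, with 18 of 32 and 15 of 23 shared in the highest part and 3 of 12 and 2 of 7 in the lowest. These intervals overlapped in each replicate, at 42.7 to 83.6% and 3.67 to 71.0% in replicate 2. After division the highest and lowest parts had 4 of 7 and 13 of 40 in replicate 1. In replicate 2 they had 1 of 3 and 19 of 35, so the order did not hold there. Arm peaks of the highest part by deposited score were shared more often, at 83.0% and 91.2% against 43.2% and 81.3% in the lowest. Division by the constants left few Het peaks in the upper 50% of the lists, 12 in each replicate, of which 1 and 1 were shared.

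**Figure D5:**
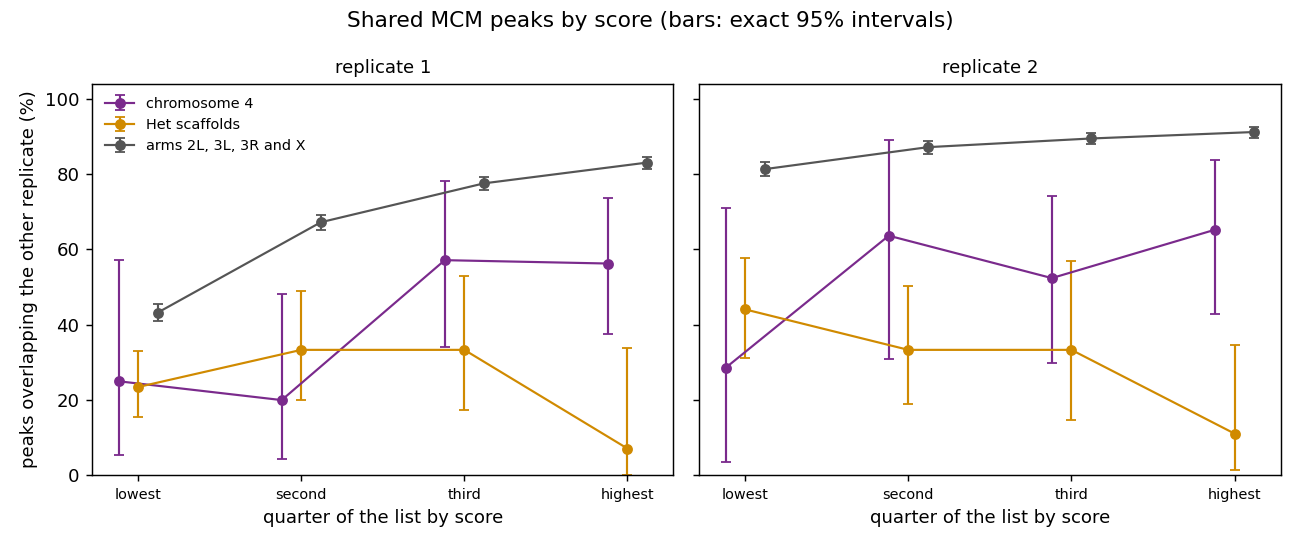
Share of MCM peaks (%) that overlap a peak of the other replicate, by which of 4 equal parts of the list ranked by deposited score they fall in, on chromosome 4, the Het scaffolds and the arms in each replicate. Bars are exact 95% intervals for counting error. The Het line ends lowest in the highest part, at 1 of 14 and 2 of 18 peaks, while the arm line climbs with score.

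Unshared MCM peaks of chromosome 4 were seldom just beside a peak of the other replicate. Of 44 unshared in replicate 1 and 27 in replicate 2, 9 and 7 had such a peak within 1 kb, at a median distance of 4.94 and 2.04 kb. On the Het scaffolds 33 of 138 and 31 of 89 did, with medians of 5.25 and 2.51 kb, and on the arms 42.3% and 63.3% did, with medians of 1.52 and 0.465 kb. Near misses occurred all the same. Peaks from 1010198 to 1010253 in replicate 1 and from 1010273 to 1010317 in replicate 2 on chromosome 4, both among the 3 highest unshared scores of their list there, lay 19 bp apart. The highest-scoring peak of chromosome 4 in each replicate had no partner. In replicate 1 it was 2 bp wide, from 201527 to 201528, with a score of 8.27 that ranked 29 in the whole list, 261 bp from the nearest replicate 2 peak. In replicate 2 it was 14 bp wide, from 405349 to 405362, with a score of 8.95 and rank 15, 8.63 kb from the nearest replicate 1 peak.

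Overlapping pairs were chosen for their overlap, and their small distances follow from that choice. The 36 overlapping pairs on chromosome 4 had a median distance of 20.5 bp between midpoints, and the narrower peak lay wholly inside the wider one in 22. The 49 pairs on the Het scaffolds had 28.5 bp and 24, and the arms had 17.5 bp and 59.0% of 5788 pairs. Deposited scores were higher in replicate 1 in 30 of the chromosome 4 pairs, with a median log2 ratio of replicate 1 to replicate 2 of 0.26, and in 42 of the Het pairs, with 0.20, beside 0.23 on the arms. After division by the constants the medians were 0.06 on chromosome 4, -0.12 over 45 pairs on 2RHet, 3LHet and 3RHet, and 0.00 on the arms. On that scale replicate 1 was the higher in 21 of 36 pairs on chromosome 4, in 16 of 45 on the scaffolds and in 50.6% on the arms, so its surplus was not seen on both scales.

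The 35 whole-series regions of chromosome 4 had a median width of 149 bp and a median score of 3.26, set beside 209 bp and 2.54 for 5586 arm regions. These are deposited scores, which were not divided for whole-series regions, and the direction turned after division for the replicate peaks. The highest was 436204 to 436327, 124 bp wide, with scores of 5.26 in replicate 1 and 4.95 in replicate 2, and it ranked 134 among all 7029 regions by deposited score. It was followed by 529186 to 529385 (200 bp, scores of 5.56 and 4.19), 725077 to 725186 (110 bp, 5.46 and 3.95), 980323 to 980414 (92 bp, 4.34 and 4.29) and 523516 to 523632 (117 bp, 4.31 and 4.14). Those at 436204, 523516 and 529186 lay in the second of the 4 equal parts of the span, from 369451 to 674537. Those at 725077 and 980323 lay in the third and the last part, and none lay in the first. The second and the fifth by score were neighbours in the list. The widest region, 577904 to 578867 with 964 bp, was 1 peak in replicate 2 and 2 peaks of 187 and 469 bp in replicate 1. The next widest were 87494 to 87978 with 485 bp, inside the run both replicates shared, and 522146 to 522564 with 419 bp. By score their ranks were 10, 16 and 6 among the 35, so width and score went together only loosely on chromosome 4.

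On the Het scaffolds the widest whole-series region was at or next to the bottom of its scaffold by score. On 2RHet it was 2573360 to 2573928 (569 bp, score 1.27), the lowest of 10, and on 3LHet it was 606365 to 607285 (921 bp, 1.58), the lowest of 16. On 3RHet 790557 to 791062 (506 bp, 1.40) was 17 of 18, and on XHet 75103 to 75492 (390 bp, 1.94) was the lowest of 3. The only region of 2LHet, 187553 to 188334, spanned 782 bp and had a score of 1.2, and each replicate covered at least 95.1% of it. That was the lowest deposited score of all 7029 regions, a rank that depends on the scale of 2LHet, which was not found.

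The highest-scoring Het region was 2386842 to 2386948 on 3LHet, 107 bp wide, with scores of 4.76 in replicate 1 and 3.59 in replicate 2 and rank 493 of 7029. It was the one Het peak of replicate 1 in the highest part of the list that both replicates shared. The second on 3LHet was 1057033 to 1057143, at 2.69 and 2.74. On 2RHet the leading regions were 15 to 362, at the very start of the scaffold, with 2.59 and 2.87, and 471414 to 471765 with 2.95 and 2.40. On 3RHet they were 1705846 to 1706103 with 2.73 and 2.08 and 1425149 to 1425366 with 2.55 and 2.19. On XHet 84752 to 84854 had 3.04 and 3.41 and 76325 to 76522 had 2.66 and 2.35.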

How the data were processed

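MCM peak lists of 2 immunoprecipitations and 1 list of the whole series were used. The file headers give FlyBase release 5.1 as the build, and the files name PeakSeq as the caller. Each replicate has a list of its own. The sources used here do not give the aligner, the caller's version and settings or how the input entered. Each peak carries a score made by the authors and deposited without a unit. Without read counts in the files, depth is unknown, and intervals cover the number of peaks alone. Positions count from 1, as in the files. No genome or gene annotation of release 5.1 was used, so no sequence is printed and no gene is named.

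Groups and replicate numbers come from the sample titles. Width is end minus start plus 1, covered length is taken after merging, and span reaches from the lowest start to the highest end over both lists. For shares, 95% intervals are exact (Clopper-Pearson). The constant of a sequence was the number for which its scores came closest to ratios of small whole numbers (denominator up to 60, tolerance 6e-06 in score). This step was added after the data were seen. It and the overlap step were tested on simulated data. Simulated scores had smaller denominators than the search allows, and simulated unshared peaks were placed apart, so harder cases were not covered. Regions named are the 5 highest-scoring and 3 widest of chromosome 4, the 2 highest-scoring and widest of each scaffold, and the leading bin, run, empty stretch and unpartnered peak, with ties to the lower start. Others named were chosen after their values were seen, namely the bins of chromosome 4 from 100001 and from 300001, its run between 87110 and 90342, the runs of the scaffolds, and the near misses. Members, lists and alternatives were chosen with earlier results of these data known. Alternatives were other score, width, overlap, neighbour and span rules and each replicate left out. Analyses used Python 3.11.15, numpy 2.4.6, pandas 2.3.3, scipy 1.17.1 and matplotlib 3.10.9.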

Additional observations from a re-analysis of the deposited data

How the results depend on the processing

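Of 40 alternative values other than those with 1 replicate left out, 18 stayed within the spread between replicates, 20 moved by more and 2 turned round. Both that turned round are of chromosome 4. Its density ratio to the arms was 1.05 in the 50% of each list with the higher deposited score, but 0.324 in the 50% with the higher divided score, and its median score ratio was 0.773 after division. Its density ratio was 0.679 without peaks under 20 bp, 0.882 with peaks within 1 kb merged and 0.774 over the whole-series span. Its score ratio was 1.04 in the higher-scoring 50% and 1.12 after merging, and its neighbour difference was -0.427 points in that 50%. For the Het scaffolds, the higher-scoring 50% gave ratios of 0.137 for density, 0.168 for width and 0.953 for score, and differences of -59.0 points for sharing and -21.9 for neighbours within 1 kb. Without peaks under 20 bp these ratios were 0.212, 0.627 and 0.776. Density was 0.295 after merging and 0.292 over the whole-series span, and the neighbour difference was -24.9 points within 5 kb. For 2RHet, 3LHet and 3RHet alone, density was 0.0400 by divided score and the score ratio was 0.593 after division. The cause of these shifts was not tested. With 1 replicate left out, values stay within the SD by construction, since n is 2. Chromosome 4 then gave 0.754 to 0.769 for density, 0.445 to 0.638 for width, 1.15 to 1.17 for score, -30.8 to -22.8 points for sharing and -20.8 to -14.1 for neighbours. The Het scaffolds gave 0.253 to 0.273, 0.449 to 0.522, 0.787 to 0.828, -52.2 to -41.6 and -16.9 to -11.2 in the same order. No paired analysis was possible because only the immunoprecipitations had values, and the input that shares the number 1 was not analysed here. Depth is unknown, and a score compares sequences only on a stated scale.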

Other observations

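The highest scores of the Het scaffolds in replicate 2 belonged to 2 isolated MCM peaks on 3LHet, named here after their values were seen. The first, from 1890999 to 1891045, was 47 bp wide with a deposited score of 10.6 and ranked 11 among the 8553 peaks of that list. The second, from 1499128 to 1499134, was 7 bp wide with a score of 7.31 and rank 33. The nearest replicate 1 peak lay 55.5 kb from the first and 102 kb from the second, so replicate 1 gave no peak in their surroundings. Another such peak, on 2RHet from 3060723 to 3060737, was 15 bp wide with a score of 5.51, 10.8 kb from any replicate 1 peak. No Het peak of replicate 1 scored above 4.76.

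When the lists were joined, chromosome 4 gave 106 distinct sites, of which 35 were found in both replicates, 44 in replicate 1 only and 27 in replicate 2 only. The Het scaffolds gave 275, of which 48, 138 and 89 fell in these classes. Sites found in both made up 33.0% on chromosome 4, 17.5% on the Het scaffolds and 61.3% of 9109 on the arms.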
